A study of Mus musculus with 34 samples.

Results

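Pmp22, Pmp2, Prx and Egr2 are genes of the myelinating Schwann cell, the glial cell that wraps axons in nerve roots and peripheral nerve. They were listed by name, and their probe sets were taken from the gene symbols of the platform table. Of the 45101 probe sets of the array, 4 carried one of these symbols: 1417133_at for Pmp22, 1458193_at for Pmp2, and 1427682_a_at and 1427683_at for Egr2. Thus 3 of the 4 listed genes were measured, of 18194 genes named in that table. No probe set was named for Prx in the table used, and Prx was not analysed here.

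The arrays measured RNA of mouse thoracic spinal cord after a moderate contusion. KO animals lacked trkB.T1, the truncated form of the BDNF receptor TrkB that has no kinase domain, and WT animals carried it. Both genotypes were C57BL/6J, backcrossed for more than 20 generations and aged 8 to 12 weeks, and the labels give each array as a biological replicate. There were 4 KO and 4 WT arrays labelled sham, 4 KO and 5 WT at day 1, 5 KO and 4 WT at day 3, and 4 KO and 4 WT at day 7, or 34 in all. The uninjured arrays are sham in their titles, but have description codes that start with Nav, so it is not settled here whether those animals were operated on. The labels do not say whether the KO was restricted to a cell type, nor how much nerve root stayed on the dissected cord.

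Schwann cells take over myelination where axons leave the cord, and the root entry and exit zones are the border between central and peripheral myelin. Egr2 (Krox20) is the zinc finger transcription factor that switches on the peripheral myelin programme, with Sox10 as its partner. Among the genes it drives are Pmp22, a membrane protein of compact peripheral myelin whose dosage is altered in inherited neuropathies, and Prx, which codes for the scaffold protein periaxin. Pmp2 codes for a fatty acid binding protein of the myelin sheath. After contusion of the cord, Schwann cells are known to enter the lesion from the roots. None of the measured genes is exclusive to Schwann cells: Egr2 is also an immediate early gene in neurons and myeloid cells, and Pmp22 is made in fibroblasts and other cells. In pieces of cord, more cells of a type and more RNA per cell cannot be told apart.

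The values were GCRMA log2 signals. They spanned 2.17 to 15.9, and about the floor, no more than 0.1 above the lowest, lay 33.7% of them. The targeted gene was checked first. Ntrk2 probe set 1420838_at read 4.62, 9.46, 3.31 and 4.91 on the 4 sham KO arrays, against 10.19 to 10.67 on the sham WT arrays. At this probe set the library labelled sham KO replicate 2 therefore went against its label. The same held at 1435196_at, where it read 8.59, the other 3 sham KO arrays 2.83 and the sham WT arrays 9.58 to 9.84. At both it lay below every sham WT array. At 1435305_at, however, it read 10.64, the other 3 sham KO arrays 10.50 to 10.62 and the sham WT arrays 10.26 to 10.41. At 1458622_at these were 11.38, 11.22 to 11.37 and 11.09 to 11.14, so there the library lay with the sham KO arrays. Its genotype is not settled here, and the members' results that rest on it are given with and without it, as are list counts that it moved. Day 1 WT replicates 1 and 2 carry source and time fields of other groups, day 7 and sham, and were grouped by their titles.

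Egr2 lies on chr10:67534469-67542188 in GRCm38.p6, on the plus strand, and RefSeq gives it 5 promoter windows. Each window was cut to the 250 bases before a transcription start and searched on both strands. The motifs were the EGR sites GCGTGGGCG and GCGGGGGCG, the SOX cores ACAAAG and ACAAT, the cyclic AMP response site TGACGTCA, the TATA box TATAAA and the serum response CArG box. Of the 5 Egr2 windows, 4 held a CArG box, and 3 of these share the same copy, because their windows overlap. A CArG box was in 1.47% of the 32851 RefSeq windows of the same length. The CArG box is the motif of serum response factor in immediate early genes. The 250 bases before the start that holds its own copy (chr10:67537316-67537565) and the 30 bases around the shared copy (chr10:67537787-67537816) are shown because Egr2 is the member past the threshold at every time in both genotypes, with the box in capitals.
Egr2 start 2: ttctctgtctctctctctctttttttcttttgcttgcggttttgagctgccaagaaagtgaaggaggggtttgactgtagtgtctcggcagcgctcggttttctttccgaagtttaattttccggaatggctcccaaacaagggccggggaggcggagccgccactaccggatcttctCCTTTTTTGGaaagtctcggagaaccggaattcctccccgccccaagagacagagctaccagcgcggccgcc
Egr2 shared site: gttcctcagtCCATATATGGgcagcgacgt

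Pmp22 lies on chr11:63128982-63159547 and has 4 windows in the same table. None held any of the searched motifs, which says only that these letters are not in these 250 bases. The window of the most upstream start (chr11:63128732-63128981, plus strand) is shown for comparison with that of Egr2.
Pmp22 start 1: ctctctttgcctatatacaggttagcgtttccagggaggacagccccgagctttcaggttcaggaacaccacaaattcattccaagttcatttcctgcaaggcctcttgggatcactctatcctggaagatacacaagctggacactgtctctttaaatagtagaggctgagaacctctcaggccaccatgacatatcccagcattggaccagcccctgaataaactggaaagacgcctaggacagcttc
A motif match is a description of the sequence and not a binding site. Pmp2 lies on chr3:10179851-10183885 and Prx on chr7:27499305-27520041.

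Egr2, the transcription factor, was far higher after contusion than in sham cord, in both genotypes and at all 3 times. Sham KO cord already had a higher Egr2 signal than sham WT cord, while the injured groups of the 2 genotypes lay close together. The brighter probe set, 1427682_a_at, read 6.18, 3.78, 6.18 and 6.34 on the sham KO arrays, against 3.62, 2.80, 3.45 and 3.84 on the sham WT arrays. The library labelled sham KO replicate 2 lay among the WT arrays, and the other 3 sham KO arrays lay above all of them. At day 1 it read 8.01, 7.55, 7.00 and 8.03 in KO and 7.65, 7.58, 7.90, 7.27 and 7.85 in WT cord. At day 3 the values were 7.56, 7.23, 7.57, 7.92 and 7.28 in KO and 7.02, 7.36, 7.33 and 7.27 in WT cord. Day 7 gave 7.44, 7.24, 8.09 and 7.45 in KO and 8.06, 7.23, 7.27 and 8.04 in WT cord. Every injured array lay above every sham array, and the KO and WT arrays overlapped at each injured time. The second probe set, 1427683_at, had the same layout at a lower signal. It read 4.56, 3.29, 4.76 and 5.63 in sham KO against 2.21, 2.34, 2.84 and 2.21 in sham WT cord, and 5.91 to 7.46 over all injured arrays. Here all 4 sham KO arrays lay above the sham WT arrays.

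**Figure D1:**
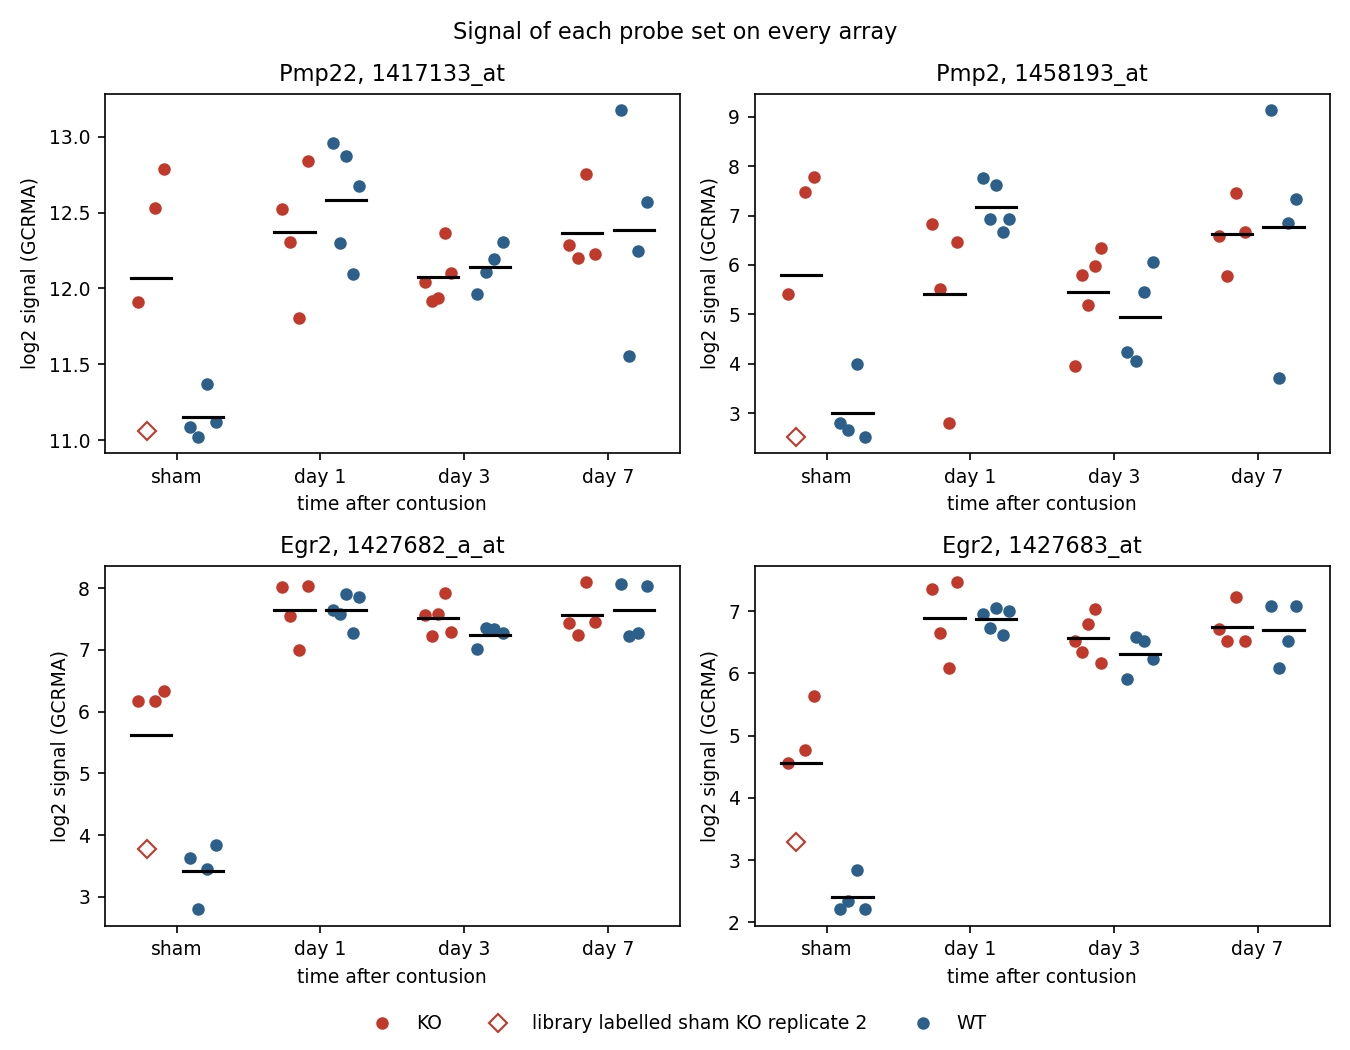
Log2 signal (GCRMA, vertical axis) of the 4 probe sets on each of the 34 arrays, by time after contusion (horizontal axis), with points for KO and WT arrays and bars for group means. The sham WT arrays lie low in every panel, with the library labelled sham KO replicate 2 among or next to them, and in the Pmp2 panel day 1 KO replicate 3, day 3 KO replicate 1 and day 7 WT replicate 2 lie in the sham WT range as well.

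In KO cord, 1427682_a_at was higher than in sham KO by 2.03 ± 0.36 at day 1, 1.90 ± 0.35 at day 3 and 1.94 ± 0.36 at day 7 (log2 difference ± SE), or 4.09-, 3.72- and 3.84-fold. The adjusted p-values of limma (Benjamini-Hochberg over 24628 probe sets tested) were 5.49e-05, 2.32e-05 and 8.67e-05. In WT cord the differences were 4.22 ± 0.35, 3.82 ± 0.36 and 4.22 ± 0.36, or 18.7-, 14.1- and 18.7-fold, with adjusted p-values of 5.6e-11, 8.02e-10 and 1.21e-10. For 1427683_at they were 2.33, 2.01 and 2.18 in KO and 4.47, 3.91 and 4.30 in WT cord, all 6 past the threshold. All 4 sham WT arrays read under 4 at both probe sets, and 2 of them lay at the lowest value of 1427683_at, 2.21, next to the floor. When the library labelled sham KO replicate 2 was left out, the KO differences were smaller, at 1.42, 1.28 and 1.33 for 1427682_a_at and 1.90, 1.58 and 1.76 for 1427683_at. Each was still past the threshold, with 38.9%, 61% and 41.1% of all probe sets called.

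Counted over the 4 probe sets, 2 were past the threshold in KO cord at each time, both of Egr2, where 44.5%, 64.8% and 47.3% of all probe sets were called at day 1, day 3 and day 7. In WT cord 4, 3 and 4 were past it, all higher than sham, against 52.9%, 61.8% and 53.5% of all probe sets. These shares are so large that the counts by themselves say little about the members. By p-value the 2 Egr2 probe sets ranked 193 and 319 of 24628 at day 1 in WT cord, and 1323 and 2424 in KO cord. Injured and sham arrays did not overlap for the 2 Egr2 probe sets in KO cord, as for 49.3%, 55% and 55.9% of all probe sets at day 1, day 3 and day 7. In WT cord they did not overlap for any of the 4, save Pmp2 at day 7, as for 46.7%, 53% and 51.6% of all probe sets.

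Pmp22 was higher after contusion in WT cord, and no difference from sham passed the test in KO cord. Its probe set 1417133_at read 11.91, 11.06, 12.53 and 12.78 on the sham KO arrays and 11.09, 11.02, 11.37 and 11.12 on the sham WT arrays. Again the library labelled sham KO replicate 2 lay within the WT range, and the other 3 lay above it. At day 1 it read 12.53, 12.31, 11.81 and 12.84 in KO and 12.96, 12.30, 12.88, 12.09 and 12.67 in WT cord. The day 3 values were 12.04, 11.92, 11.94, 12.37 and 12.10 in KO and 11.96, 12.11, 12.19 and 12.31 in WT cord. At day 7 they were 12.29, 12.20, 12.75 and 12.23 in KO and 13.18, 11.56, 12.24 and 12.57 in WT cord. All WT injured arrays lay above all sham WT arrays, whereas KO injured arrays lay within the range of the sham KO arrays, apart from day 1 replicate 4 above it. The signal was well above the floor on every array, the lowest being 11.02, so these differences are not cut short by it.

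Pmp22 in WT cord was higher than sham by 1.43 ± 0.27 at day 1, 0.99 ± 0.29 at day 3 and 1.24 ± 0.29 at day 7, or 2.69-, 1.99- and 2.36-fold, with limma adjusted p-values of 9.17e-05, 0.00402 and 0.000732. In KO cord the differences were 0.30, 0.00 and 0.29 with 95% intervals of -0.29 to 0.89, -0.56 to 0.56 and -0.30 to 0.89, and adjusted p-values of 0.422, 0.995 and 0.425. They were -0.04, -0.33 and -0.04 when the library labelled sham KO replicate 2 was left out, again not past the threshold.

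Pmp2 had the widest spread between arrays of 1 group. Its probe set 1458193_at read 5.41, 2.52, 7.48 and 7.78 in sham KO and 2.81, 2.67, 4.00 and 2.53 in sham WT cord. The library labelled sham KO replicate 2 was the lowest of all 34 arrays, and the other 3 sham KO arrays were above every sham WT array. At day 1 the KO arrays read 6.84, 5.51, 2.81 and 6.47, against 7.76, 6.92, 7.63, 6.67 and 6.94 on the WT arrays. At day 3 the values were 3.95, 5.80, 5.19, 5.98 and 6.34 in KO and 4.25, 4.05, 5.45 and 6.06 in WT cord, and at day 7 they were 6.58, 5.77, 7.45 and 6.67 in KO and 9.14, 3.72, 6.85 and 7.34 in WT cord. Single arrays stood low in 2 injured groups, day 1 KO replicate 3 and day 7 WT replicate 2, and each was also the lowest of its group for Pmp22 and for both Egr2 probe sets. On 8 of the 34 arrays the probe set read under 4.

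Pmp2 in WT cord was higher than sham by 4.18 ± 0.91 at day 1 and 3.76 ± 0.96 at day 7, with limma adjusted p-values of 0.000391 and 0.00169. The day 3 difference was 1.95 ± 0.96, with a 95% interval of -0.02 to 3.91 and an adjusted p of 0.0794, although the 4 day 3 WT arrays lay above the 4 sham WT arrays. That adjusted p was 0.0448, with 61.6% of all probe sets called, when the library labelled sham KO replicate 2, which enters the shared spread, was left out, and 0.0498 with day 7 WT replicate 2 set aside. On the sham WT side, 3 of the 4 arrays read under 3. In KO cord the differences from sham were -0.39, -0.34 and 0.82, with 95% intervals of -2.36 to 1.58, -2.21 to 1.52 and -1.14 to 2.79 and adjusted p-values of 0.773, 0.758 and 0.509. With the library labelled sham KO replicate 2 set aside they were -1.48, -1.43 and -0.27, with adjusted p-values of 0.198, 0.153 and 0.847.

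**Figure D2:**
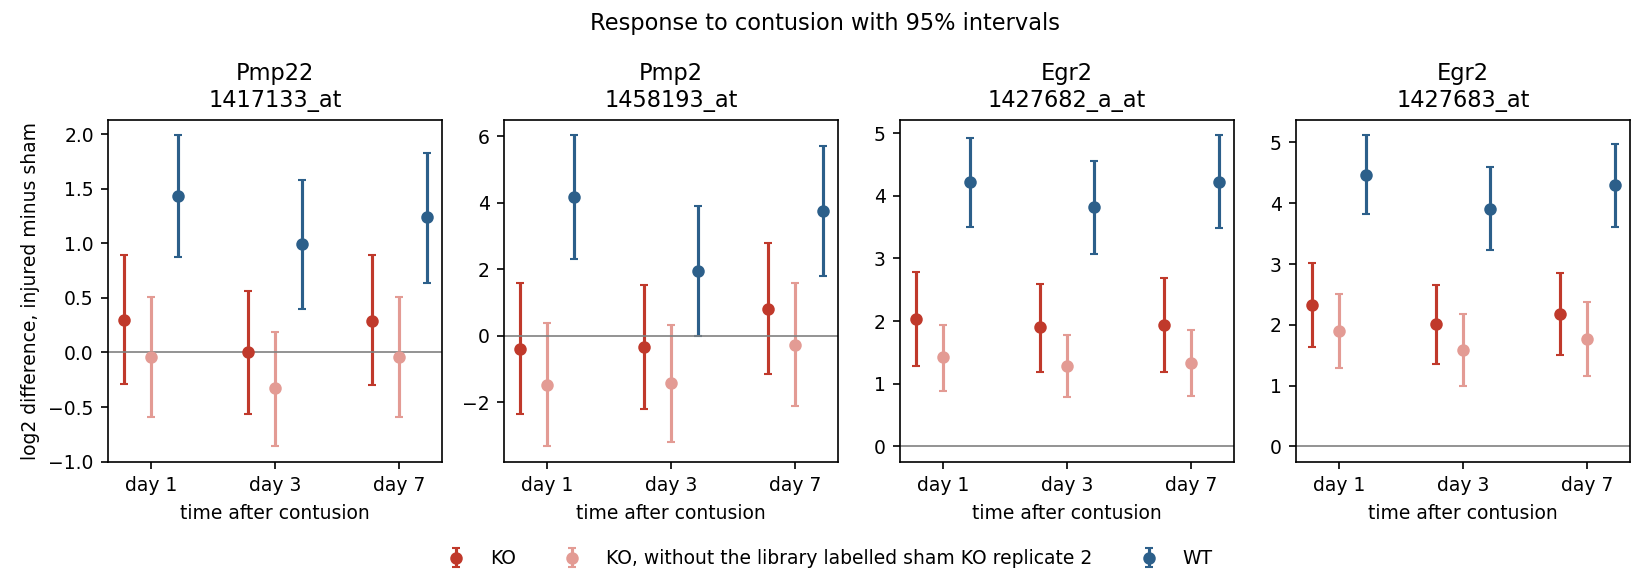
Log2 difference of injured from sham cord (vertical axis) with 95% intervals for each probe set, by time after contusion (horizontal axis), for KO, KO with the library labelled sham KO replicate 2 left out, and WT. The 2 Egr2 probe sets lie above 0 in all 3 series, at 1.28 to 2.33 in KO and 3.82 to 4.47 in WT, while the KO intervals of Pmp22 and Pmp2 include 0.

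None of the 4 probe sets passed the threshold between day 1 and day 3 or between day 3 and day 7, where 46.6% and 30.3% of all probe sets were called in KO cord, and 27% and 19.2% in WT cord. Pmp2 came closest, with a day 3 minus day 1 difference of -2.23 ± 0.91 in WT cord and a limma adjusted p of 0.0679. Its day 1 and day 3 WT arrays did not overlap, nor did those of Egr2 1427683_at (-0.56, adjusted p = 0.193), where 19.7% of all probe sets did not overlap. This Pmp2 difference passed the threshold with the library labelled sham KO replicate 2 set aside (adjusted p = 0.0373, 26.6% of all probe sets called), and with day 7 WT replicate 2 set aside (adjusted p = 0.0413). With day 7 WT replicate 2 set aside, Pmp2 also passed it between day 3 and day 7 in WT cord, at 2.82 with an adjusted p of 0.0368, against 1.81 and 0.194 over all arrays.

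Between genotypes, Egr2 was past the threshold in sham cord, and no member was in an injured group. In sham cord the KO minus WT difference was 2.19 ± 0.36 for 1427682_a_at and 2.16 ± 0.33 for 1427683_at, or 4.56- and 4.48-fold, with limma adjusted p-values of 0.00508 and 0.00154. These 2 of 4 probe sets stand beside 0.0528% of all probe sets, 13 in number, and ranked 8 and 7 by p-value. For 1427682_a_at, 3 of 4 sham KO arrays lay above all sham WT arrays, and all 4 did for 1427683_at, where 4.7% of all probe sets did not overlap. Of the 4 sham WT arrays, 2 lay within 0.1 of 2.17, the lowest signal of all probe sets, at 1427683_at and none at 1427682_a_at. Fitted on the sham arrays alone, without the spread of the injured groups, neither passed the threshold (adjusted p = 0.421 and 0.369). Nor did they at 1.36 and 1.30 (adjusted p = 0.982 for both) when the 2 day 1 WT arrays were grouped by their source and time fields, and 1427682_a_at did not with sham KO replicate 4 set aside (1.95, adjusted p = 0.0596).

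With the library labelled sham KO replicate 2 set aside, the sham KO minus WT difference of Egr2 was 2.80 ± 0.26 and 2.59 ± 0.30. The limma adjusted p-values were 1.15e-07 and 1.08e-05, with 0.0773% of all probe sets called. Sham KO cord then averaged 6.23 ± 0.09 and 4.99 ± 0.57 (SD, n = 3), against 3.43 ± 0.45 and 2.40 ± 0.30 in sham WT cord (SD, n = 4). The Pmp22 difference was 0.92 ± 0.29 over all arrays (adjusted p = 0.688) and 1.26 ± 0.27 without that library (adjusted p = 0.0759). For Pmp2 it was 2.79 ± 0.96 (adjusted p = 0.836) and 3.88 ± 0.90 (adjusted p = 0.132). Neither gene passed the threshold in either case, and their 95% intervals over all arrays, 0.33 to 1.51 and 0.83 to 4.76, lay above 0 before adjustment.

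None of the 4 probe sets was past the threshold in KO against WT cord at day 1, day 3 or day 7, where 0.589%, 0.0365% and 0.0406% of all probe sets were called. Egr2 differed by 0.00 and 0.02 at day 1, by 0.27 and 0.26 at day 3 and by -0.09 and 0.05 at day 7. The 95% intervals of these differences reached at most 0.98 in the positive and -0.84 in the negative direction. Pmp22 differed by -0.21, -0.07 and -0.02. Pmp2 differed by -1.78 at day 1, with a 95% interval of -3.64 to 0.09 and an adjusted p of 0.593, and by 0.50 and -0.14 at day 3 and day 7. Its 95% intervals at day 3 and day 7 were wide, from -1.36 to 2.37 and from -2.11 to 1.82. Averaged over the 4 conditions, KO exceeded WT by 0.59 and 0.62 at the Egr2 probe sets, with adjusted p-values of 0.295 and 0.189 and 0.126% of all probe sets called. These were 0.74 and 0.73 with the library labelled sham KO replicate 2 set aside, with adjusted p-values of 0.00168 and 0.0204 and 0.118% of all probe sets called.

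**Figure D3:**
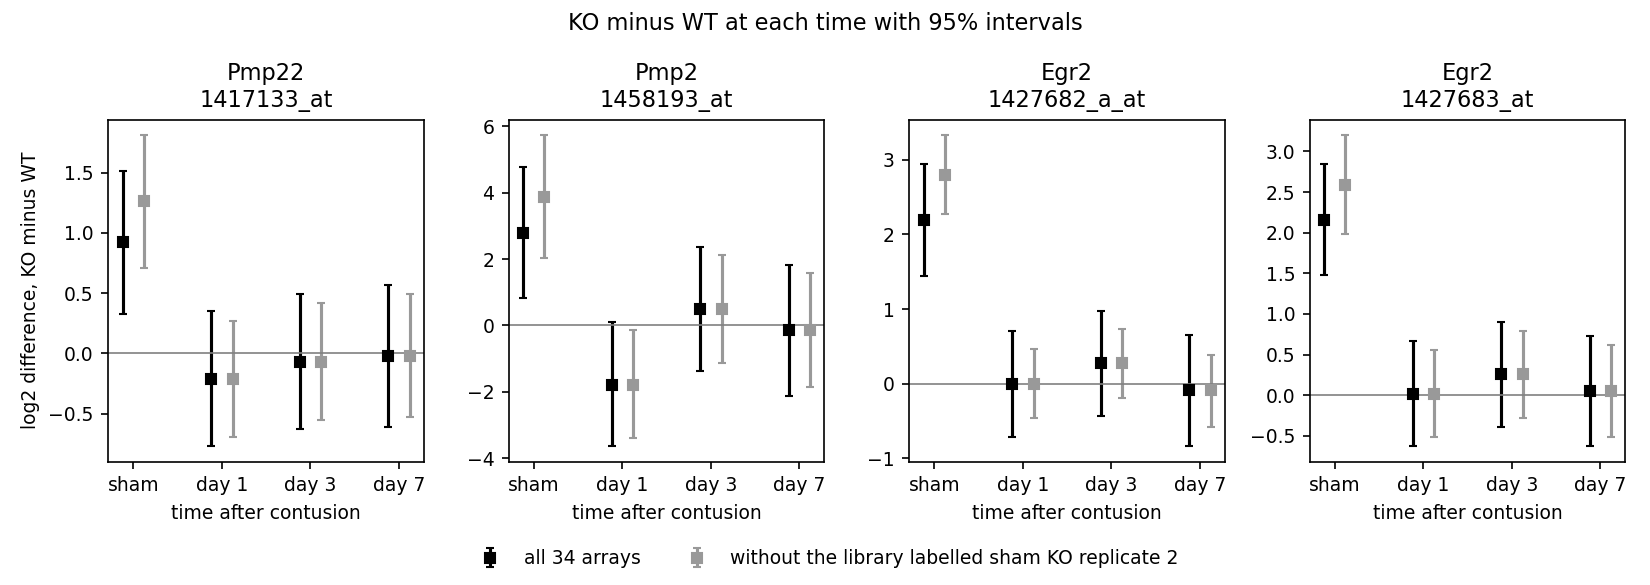
KO minus WT log2 difference (vertical axis) with 95% intervals for each probe set, in sham cord and by time after contusion (horizontal axis), over all arrays and with the library labelled sham KO replicate 2 left out. In sham cord Egr2 stands at 2.19 and 2.16 over all arrays, and at the injured times the estimates of Egr2 lie between -0.09 and 0.27.

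The difference between the KO and WT responses to injury was tested directly. Over all arrays none of the 4 probe sets passed the threshold, at day 1, day 3 or day 7, where 0.069%, 0% and 0.00406% of all probe sets were called and 1342, 1567 and 907 had an unadjusted p under 0.05. For Egr2 the KO response minus the WT response was -2.19, -1.92 and -2.28 at 1427682_a_at (limma adjusted p = 0.111, 0.574 and 0.524) and -2.15, -1.91 and -2.11 at 1427683_at (adjusted p = 0.0695, 0.507 and 0.524). For Pmp2 it was -4.57, -2.29 and -2.94, and for Pmp22 -1.13, -0.99 and -0.94, all 4 probe sets thus having a smaller estimated response in KO at each time. These 3 tests share the sham arrays, so 1 shift of the sham groups enters all of them. With the library labelled sham KO replicate 2 set aside, both Egr2 probe sets passed the threshold at every time. The differences were -2.80, -2.54 and -2.90 at 1427682_a_at (adjusted p = 0.000154, 0.00107 and 0.000129) and -2.57, -2.33 and -2.54 at 1427683_at (adjusted p = 0.0024, 0.0331 and 0.00819), where 0.0935%, 0.00813% and 0.0122% of all probe sets were called. At day 3 they were the 2 probe sets called of all tested, and at day 7 they were 2 of 3. In the unweighted fit, whether Egr2 was called thus depended on the 1 array whose signal at 2 Ntrk2 probe sets went against its label. Array weights of limma, estimated from the spread of each array about its group in these data, were also used with all 34 arrays kept. They called both probe sets at day 1 (adjusted p = 0.02 and 0.0151) and at day 7 (adjusted p = 0.0215 and 0.0202). At day 3 they called neither. The library labelled sham KO replicate 2 had a weight of 1.11.

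Ordered by group mean, Pmp22 was lowest in sham WT at 11.15 ± 0.15 (SD, n = 4), followed by sham KO at 12.07 ± 0.77 (SD, n = 4) and day 3 KO at 12.07 ± 0.18 (SD, n = 5), and was highest in day 1 WT at 12.58 ± 0.37 (SD, n = 5). From sham KO upward, each step to the next mean was smaller than the larger SD of both groups. Pmp2 ran from 3.00 ± 0.67 in sham WT, through 4.95 ± 0.96 in day 3 WT, to 7.18 ± 0.48 in day 1 WT, with the other 5 groups between 5.41 and 6.76. For Egr2 1427682_a_at the order was sham WT at 3.43 ± 0.45, sham KO at 5.62 ± 1.23, and then all 6 injured groups between 7.25 and 7.65. No comparison of genotypes or of successive days among those 6 was past the threshold, and sham KO and sham WT stood below them.

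The members were correlated from array to array, also within groups. Over the 34 arrays Pearson's r was 0.91 between Pmp22 and Pmp2, 0.81 between Pmp22 and Egr2 1427682_a_at, and 0.68 between Pmp2 and the same Egr2 probe set. After each group's mean was taken off, r was 0.90, 0.80 and 0.71, and over the 26 injured arrays alone 0.85, 0.83 and 0.67. The order of arrays was not the same for every member: day 3 WT replicate 2 was the highest of its group for Egr2 1427682_a_at, at 7.36, and the lowest for Pmp2, at 4.05. These are descriptions over arrays of whole cord, which share dissection, RNA and normalization, and how much root each piece held was not measured.

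**Figure D4:**
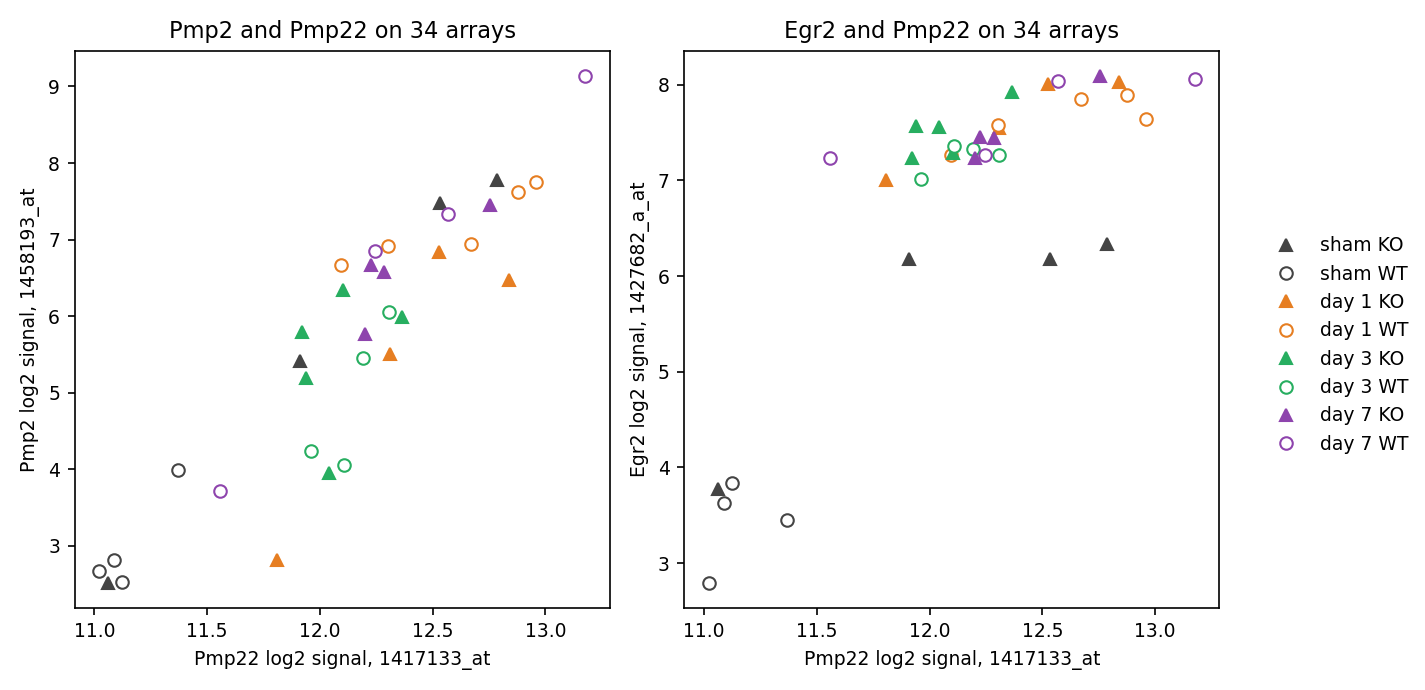
Log2 signal of Pmp2 and of Egr2 (vertical axes) against that of Pmp22 (horizontal axis) on 34 arrays, marked by genotype and time. Pmp2 follows Pmp22 across all arrays (r = 0.91), and the sham WT arrays with the library labelled sham KO replicate 2 form the low end of both panels.

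The genes most like Pmp22 over the 34 arrays were Plekha4 (r = 0.935), Pmp2 (0.912), Sbspon (0.904), Mlip (0.856) and Dhh (0.852). Plekha4 codes for a pleckstrin homology domain protein, and Dhh for desert hedgehog, the ligand by which Schwann cells signal to the nerve sheath. For Pmp2 they were Pmp22, Plekha4 (0.853), Mlip (0.78), Ctnnal1 (0.775) and Cdh1 (0.769), the last being E-cadherin, which Schwann cells use in autotypic junctions. For Egr2 the closest were Tcim (0.923), Shc4 (0.917), Icam1 (0.913), Iqgap2 (0.908) and Fcgr2b (0.902), of which Icam1 is an adhesion molecule for leukocytes and Fcgr2b an Fc receptor of myeloid and B cells. Over the 8 sham arrays alone, Pmp22 and Pmp2 were each other's closest gene (r = 0.994), followed by Plekha4 (0.987 and 0.989) and Vgll3 (0.984 and 0.985). In sham cord the closest to Egr2 were Cyp1b1 (0.976), Serpinb6b (0.967), Abca8a (0.963), Slco2b1 (0.961) and Cd59a (0.961), so that the genes nearest to Egr2 over the sham arrays and over all arrays were not the ones nearest to Pmp22.

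Plekha4 had the layout of Pmp22 on the sham arrays, at 4.90, 2.61, 5.61 and 6.13 in KO against 2.61, 2.91, 3.52 and 2.72 in WT cord. Dhh read 3.69, 2.28, 4.19 and 4.72 in KO against 2.28, 3.41, 2.46 and 2.45 in WT cord. In both, the library labelled sham KO replicate 2 was at or below the lowest WT array. Plekha4 was higher than sham in WT cord by 2.65, 2.29 and 2.52 at day 1, day 3 and day 7 (limma adjusted p = 0.000562, 0.00255 and 0.00141), against 0.65, 0.46 and 1.25 in KO cord, none of them past the threshold. Its sham KO minus WT difference of 1.87 was not past it either (adjusted p = 0.805). All of these KO values include the library labelled sham KO replicate 2, whose 2.61 lowers the sham KO mean of Plekha4. Since Plekha4 was picked for its likeness to Pmp22, this layout is no independent sign of it.

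Of 24 listed genes of the Schwann cell lineage and its regulators, 21 were tested, and Erbb2, Foxd3 and Gfra3 never reached a log2 signal of 4 in 4 arrays. In KO cord 6, 7 and 7 of the 21 rose at day 1, day 3 and day 7, and 4, 4 and 3 fell. In WT cord 11, 10 and 11 rose, and 3, 4 and 4 fell. Over all genes, with 1 probe set for each, 23.1%, 30.7% and 22.9% rose in KO and 26.6%, 29% and 25.4% in WT cord. In the same order, 26.4%, 38.4% and 30.1% fell in KO and 31.8%, 37% and 32.6% in WT cord. The median difference over the 21 genes was 0.10, 0.40 and 0.28 in KO and 0.24, 0.35 and 0.31 in WT cord, where the median over all genes was between -0.06 and -0.05. With the library labelled sham KO replicate 2 set aside, 6, 6 and 6 of them rose and 4, 4 and 2 fell in KO cord.

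Jun, the factor of the Schwann cell repair state and of many injured cells, rose by 1.83, 1.44 and 1.07 in KO cord and by 1.90 at day 1 and 1.28 at day 3 in WT cord. Adgrg6, the receptor (Gpr126) that starts Schwann cell myelination, rose by 1.57 at day 3 and 1.27 at day 7 in KO cord, and by 1.40, 1.80 and 1.37 in WT cord. Cdh19, a cadherin of Schwann cell precursors, rose by 0.71, 0.84 and 0.72 in KO and 0.81, 0.94 and 0.87 in WT cord. Nab2, a corepressor that binds Egr2, rose by 1.04, 1.02 and 0.90 in KO and 0.98, 0.93 and 0.59 in WT cord. Nrg1, the axonal growth factor of Schwann cells, fell by 1.43 at day 3 in KO and by 1.23 in WT cord, and S100b fell by 0.63 and 0.62. Sox10, which oligodendrocytes share, differed by 0.22, -0.19 and -0.14 in KO cord, none past the threshold, and in WT cord rose by 0.29 at day 1. In sham KO against sham WT cord none of the 21 was past the threshold, and 0.0667% of all genes were.

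**Figure D5:**
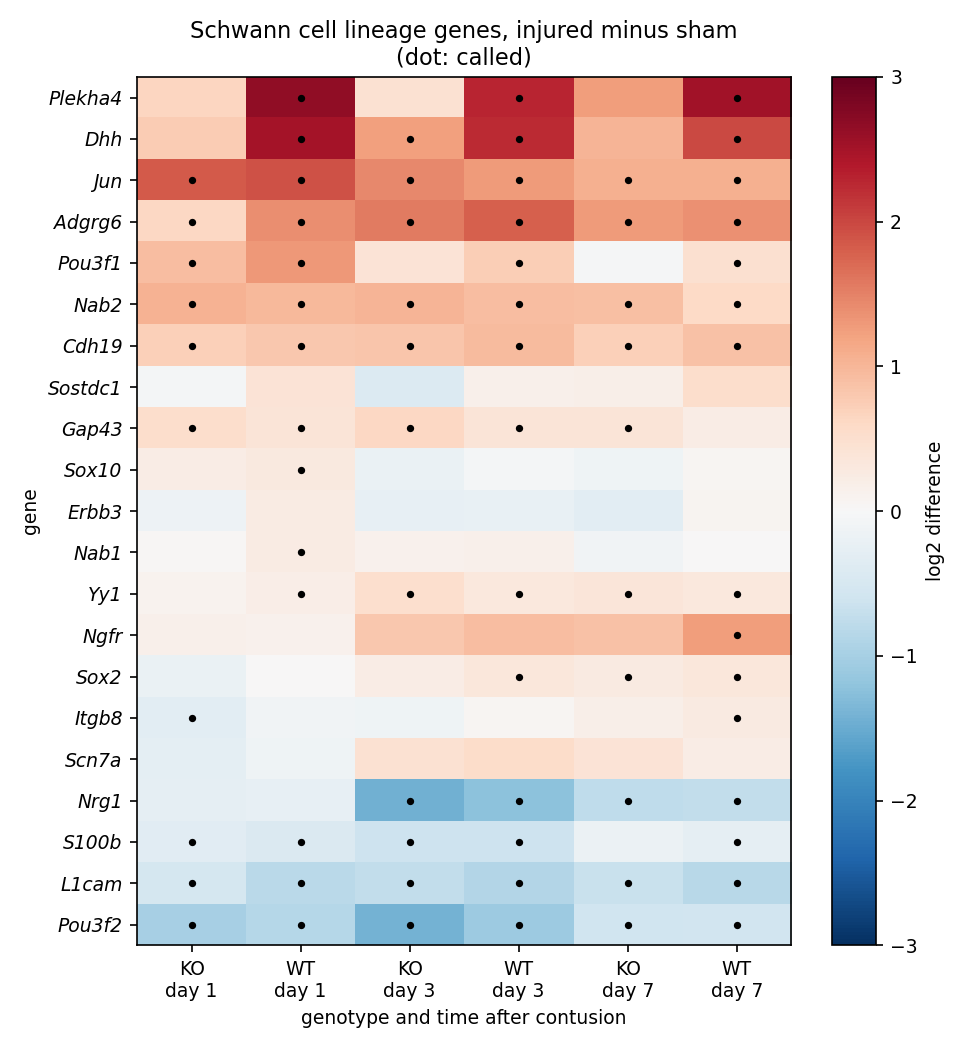
Log2 difference of injured from sham cord (colour) for the 21 tested Schwann cell lineage genes (vertical axis), by genotype and time (horizontal axis), with a dot where limma's adjusted p was under 0.05. Jun, Adgrg6, Cdh19 and Nab2 are higher in both genotypes, and Plekha4 reached 2.65 in WT but at most 1.25 in KO cord. The library labelled sham KO replicate 2 is included.

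Of 13 other listed myelin genes of the Schwann cell, 9 were tested, and most of those called were lower after contusion. At day 1, day 3 and day 7, 0, 0 and 0 rose and 5, 7 and 4 fell in KO cord, and 1, 0 and 0 rose and 5, 6 and 4 fell in WT cord, where 26.4%, 38.4% and 30.1% of all genes fell in KO and 31.8%, 37% and 32.6% in WT cord. Of those that fell, several are also made by oligodendrocytes, such as Cnp (-0.55 in KO and -0.56 in WT at day 1), Ugt8a (-1.28 and -1.11) and Fa2h (-0.65 and -0.78), enzymes of myelin and its lipids. The 1 that rose was Ncmap, a small membrane protein of noncompact peripheral myelin, at 1.49 ± 0.59 in WT cord at day 1 (limma adjusted p = 0.0334), against 0.73 in KO (adjusted p = 0.349). Of 12 central myelin and oligodendrocyte genes, some of them shared with that list, 3, 0 and 0 rose and 6, 9 and 6 fell in KO cord, and 3, 1 and 0 rose and 6, 9 and 6 fell in WT cord. When the library labelled sham KO replicate 2 was left out, 5, 9 and 3 of these 12 fell in KO cord, and of the 9 Schwann cell myelin genes 4, 6 and 3 fell. Opalin, found in oligodendrocytes, fell by 1.26 at day 3 in KO and by 0.88 in WT cord.

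Prx was not measured, and a list of periaxin, dystroglycan and laminin partners, which does not stand in for it, was looked at. Periaxin binds Drp2, which ties it to dystroglycan and the laminins of the basal lamina. Of 14 tested genes of this list, 3, 8 and 8 rose in KO cord at day 1, day 3 and day 7. At these times 4, 1 and 1 fell. In WT cord 8, 9 and 10 rose and 3, 1 and 1 fell. Of all genes, 23.1%, 30.7% and 22.9% rose in KO and 26.6%, 29% and 25.4% in WT cord. Thus 3 of 14 that rose at day 1 in KO cord is near the share of all genes. The shares of all genes that fell were 26.4%, 38.4% and 30.1% in KO and 31.8%, 37% and 32.6% in WT cord. Drp2 rose by 1.10 at day 1 in KO and by 1.61 in WT cord (limma adjusted p = 0.00632 and 6.93e-05), and at day 7 its differences were 0.15 and 0.44, neither past the threshold. The laminin chains Lama4 and Lamb1, also made by vessels and fibroblasts, rose by 1.93 and 2.07 at day 3 in KO and by 2.64 and 2.68 in WT cord. In the fit that left out the library labelled sham KO replicate 2, the genes that rose in KO cord were 3, 8 and 6.

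Of the 6 tested genes of the PMP22 and EMP family, with Pmp22 among them, 2, 3 and 3 rose and 1, 1 and 0 fell in KO cord at day 1, day 3 and day 7, and 4, 5 and 4 rose and 1, 1 and 0 fell in WT cord. Emp1 and Emp3, membrane proteins found in many cell types, rose by 3.75 and 3.30 at day 1 in KO and by 4.24 and 3.47 in WT cord. Among 7 tested fatty acid binding protein genes, Pmp2 included, 0, 3 and 4 rose and 1, 1 and 1 fell in KO cord, and 1, 3 and 4 rose and 2, 2 and 1 fell in WT cord. With the library labelled sham KO replicate 2 set aside, 0, 3 and 3 of these 7 rose in KO cord. These families are small. The shares of all genes that rose were between 22.9% and 30.7%, and of those that fell between 26.4% and 38.4%. Fabp4, known from fat cells, macrophages and endothelium, rose by 3.91 at day 3 in KO and by 2.44 in WT cord. Fabp7 of radial glia and astrocytes rose by 1.56 and 0.92. Of 9 tested EGR family and immediate early genes, 6, 6 and 5 rose in each genotype at day 1, day 3 and day 7, Egr2 included, against the same shares of all genes. In KO cord 0, 2 and 2 of the 9 fell, and in WT cord 1, 2 and 2. Fos rose by 2.63 at day 1 in KO and 2.92 in WT cord, Junb by 2.86 and 2.77, whereas Egr3 fell by 0.98 at day 7 in KO and by 1.25 in WT cord. In sham KO against sham WT cord, Egr2 was the 1 gene of these 9 past the threshold.

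Markers of other cell types differed between the same arrays. In sham cord the mean signal of the 21 Schwann lineage genes was 7.85, 7.58, 7.97 and 8.03 in KO against 7.54, 7.65, 7.66 and 7.58 in WT cord, again with the library labelled sham KO replicate 2 at the WT level. The 12 fibroblast and meningeal genes read 8.45, 6.26, 8.70 and 8.36 in sham KO and 6.02, 7.70, 9.13 and 8.08 in sham WT cord. The library labelled sham KO replicate 2 was low there too. Sham WT replicate 3 was the highest of all 8. The 13 skeletal muscle genes read 7.74, 9.38, 9.42 and 10.64 in sham KO and 4.03, 9.06, 3.74 and 8.54 in sham WT cord. Sham WT replicate 2 had the highest muscle signal of the sham WT arrays. Against sham, 13, 1 and 12 of these 13 genes fell in KO cord at day 1, day 3 and day 7. In WT cord 1, 1 and 1 fell, and 0 rose in either genotype. Of all genes, 26.4%, 38.4% and 30.1% fell in KO and 31.8%, 37% and 32.6% in WT cord. With the library labelled sham KO replicate 2 set aside, 7, 1 and 7 fell in KO cord. Caudal Hox genes, which mark the level of the cord, read 8.78 to 9.05 in sham KO and 6.92 to 7.61 in sham WT cord, and 4 of 7 were called between them, or 2 with the library labelled sham KO replicate 2 set aside, where 0.0667% of all genes were called over all arrays. The 9 endothelial genes read 6.46 to 6.73 in sham KO and 5.91 to 6.18 in sham WT cord, with that library at 6.49. In WT cord 4, 3 and 4 of the 7 Hox genes rose at day 1, day 3 and day 7. The number that fell there was 2, 3 and 3. In KO cord 0 rose at each time, and 3, 7 and 3 fell. Of all genes, 26.6%, 29% and 25.4% rose in WT and 23.1%, 30.7% and 22.9% in KO cord. With the library labelled sham KO replicate 2 set aside, 1, 3 and 3 fell in WT and 1, 6 and 3 in KO cord. The part of root, meninges, muscle, vessels or cord level in the differences of the members, in sham cord or after contusion, was not tested.

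Of 12 listed sensory ganglion genes, 9 had a probe set and 4 were tested. Scn10a, Trpv1 and P2rx3 did not reach 4 on any array. The 4 tested ones had a mean signal of 6.88 to 7.22 in sham KO and 6.81 to 7.03 in sham WT cord. Macrophage and microglia genes read 6.25 to 6.81 in sham KO and 6.81 to 7.13 in sham WT cord, and none of these 10 genes was called between the sham genotypes. After contusion they read 7.56 to 8.12 in KO and 7.93 to 8.46 in WT cord at day 1, and 10.33 to 10.45 and 10.38 to 10.63 at day 7. The Egr2 1427682_a_at group means were between 7.51 and 7.65 in KO and between 7.25 and 7.65 in WT cord at the 3 times. The part of myeloid cells in the Egr2 signal was not tested. The actin 3' to 5' signal difference, a sign of RNA quality, was 1.99 to 2.14 in sham KO, 1.80 to 2.05 in sham WT and 1.22 to 1.81 over the day 3 arrays. That of Gapdh went the other way, at 0.06 to 0.12 in sham KO, 0.03 to 0.10 in sham WT and 0.17 to 0.52 at day 3. The part of RNA quality in the differences between times was not tested.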

How the data were processed

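RNA was extracted with Trizol and 1 µg was labelled by the Affymetrix protocol, per the labels. The authors deposited log2 values, computed by GCRMA per the submitters' processing notes (version not given in the sources used here). Array medians lay between 4.14 and 4.39, and the number of arrays limits precision. Gene names came from the platform table, updated by Entrez identifier through the RefSeq table of GRCm38.p6, which also gave coordinates and promoter windows. 34958 probe sets named 1 gene and 932 several. The 24628 probe sets tested reached a log2 of 4 in 4 or more arrays, and all 4 member probe sets were among them. limma 3.58.1 in R 4.3.3 fitted 8 group means to 34 arrays (26 residual and 2.62 prior degrees of freedom), for 18 comparisons. Adjusted p-values are Benjamini-Hochberg over all probe sets, with a threshold of 0.05. SE and intervals are limma's, and SD is over arrays. Lists took the probe set of highest mean for each gene, 11999 in all, and named up to 4 genes per list and comparison by the largest difference, called ones first; further genes (Cdh19, Nab2, S100b, Sox10, Drp2 and Ncmap where outside that rule) were chosen after their values were seen. The 5 genes most correlated with each member's brightest probe set were named. The members and lists were chosen with earlier results of these data known. Labels give no batch. The fit was tested on simulated data. Alternatives were other filters, a prior with trend, array weights, quantile normalization, a fit of only the arrays compared, the mean of probe sets, other groupings of the 2 arrays, a replicate block and leaving out each array.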

Additional observations from a re-analysis of the deposited data

Results flagged for a closer look

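In each of the 8 groups, each of the 4 probe sets was checked for an array far from the others, 32 checks in all, of which 2 stood out, and chance gives about 1 in 20. Egr2 1427682_a_at on the library labelled sham KO replicate 2 read 3.78, and the other 3 sham KO arrays 6.18 to 6.34. Pmp22 on day 7 KO replicate 3 read 12.75, and the other 3 day 7 KO arrays 12.20 to 12.29.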

How the results depend on the processing

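The 6 counts of member probe sets called in injured against sham cord were the same, within 1.5 times, under every alternative run. Each member difference was counted once for each other setting. Of these counts, 697 kept their direction and side of the threshold, 4 lost their call, 9 gained one and 6 changed sign. In sham KO against WT, 2 probe sets were called, and 0 in the fit of only the sham arrays (adjusted p = 0.421 and 0.369 for Egr2, range over other settings 0.000135 to 0.982) and 0 with the 2 day 1 WT arrays grouped by their source and time fields, which puts a day 1 array among sham WT (1.36 and 1.30). Array weights called 1 for the mean of KO minus WT (0 without them), 2 and 2 for injury by genotype at day 1 and day 7 (0 and 0 without them) and 1 for WT day 7 against day 3 (0 without them). The fit of only the arrays compared called 2 for WT day 3 against day 1 (0 over all). The cause was not tested. Sign changes lay near 0 and were of uncalled values: Egr2 1427683_at KO minus WT at day 1 was -0.02 with the replicate block, and at day 7 -0.01 with array weights and -0.02 as the mean of probe sets. Pmp2 at day 3 against day 1 in KO was -0.28 with array weights, -0.02 after quantile normalization and -0.03 with the replicate block.

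With each array left out, calls ranged from 1 to 2 in sham KO against WT (1 without sham KO replicate 4, where Egr2 1427682_a_at was 1.95, adjusted p = 0.0596), from 0 to 2 for the mean of KO minus WT and for injury by genotype at day 1, day 3 and day 7 (2 without sham KO replicate 2), and from 0 to 1 for WT day 3 against day 1 and day 7 against day 3. Signs changed for these uncalled values. In KO against sham, day 1 Pmp2 ran from -1.48 to 0.47, day 3 Pmp2 from -1.43 to 0.32, day 7 Pmp2 from -0.27 to 1.48, day 1 Pmp22 from -0.04 to 0.54, and day 7 Pmp22 from -0.04 to 0.53. In KO minus WT, Egr2 1427683_at ran from -0.17 to 0.29 at day 1 and -0.15 to 0.18 at day 7, Egr2 1427682_a_at from -0.27 to 0.04, Pmp2 from -1.16 to 0.65 and Pmp22 from -0.30 to 0.24 at day 7. Between days, Pmp2 ran from -0.82 to 0.52 (KO, day 3 against day 1), Egr2 1427682_a_at from -0.14 to 0.15 (KO, day 7 against day 3) and Pmp22 from -0.02 to 0.52 (WT, day 7 against day 3).

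Same-numbered KO and WT arrays of the same time correlated at -0.36 to 0.32 over 16 pairs, of which 6 exceeded 0.1, so the rule that every pair exceed 0.1 was not met and the numbers were not taken to pair the arrays. The replicate block left the number of member calls at 2 in sham KO against WT.

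Counts over all probe sets moved more. KO minus WT called 13 in sham (2 to 91 under other settings), 145 at day 1 (23 to 535), 9 at day 3 (2 to 17), 10 at day 7 (7 to 286) and 31 for the mean (12 to 404). Injury by genotype called 17 (0 to 113), 0 (0 to 6) and 1 (0 to 49). WT day 1 against sham called 13030 (5974 with the 2 arrays regrouped). Among the between-day counts, the lowest were 3455 of 7471 (KO, day 7 against day 3), 3075 of 6651 (WT, day 3 against day 1) and 980 of 4718 (WT, day 7 against day 3). Signals at the floor on 2 sham WT arrays limit how low Egr2 1427683_at could read.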
